A study of Mus musculus with 13 samples.

Results

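The histone deacetylases measured here are Hdac1, Hdac2, Hdac3, Hdac4, Hdac5, Hdac6, Hdac7, Hdac8, Hdac10 and Hdac11, 10 genes chosen by their platform gene symbol and read by 13 of the 25697 probes on the chip. They were followed over 13 Illumina mouse BeadChips, on which beads carry probes for known transcripts. The methods name a WG6 chip, whereas the annotation that gave the symbols is of the smaller MouseRef-8 chip, so probes of the family outside that annotation are not described here. Embryos came from somatic cell nuclear transfer (SCNT), in which the nucleus of a cumulus cell replaces that of the oocyte, or from fertilization. Pronuclear oocytes were cultured with aphidicolin (Aph+), an inhibitor of replicative DNA polymerases, and stayed at the single-cell stage, or without it (Aph-) and went on to cleave. SCNT Aph+ embryos were read by 1 array, and SCNT Aph-, fertilized Aph+ and fertilized Aph- embryos by 3 arrays each. Untreated cumulus cells had 2 arrays and untreated MII oocytes 1. All RNA came from pools. According to the labels fertilization was in vitro, as the array section of the methods also says, and B6C3F1 mice gave the oocytes and the cumulus cells. Elsewhere the methods give sperm injection, C3H/HeN oocytes and C57Bl/6J donor nuclei or sperm. The labels call every embryo sample blastocysts, arrested Aph+ embryos included, and within a group of 3 they tell the arrays apart as one with no time, one at 96 h and one named for the blastocyst, the order in which values are given below. The paper's text gives 96 h after activation as the collection time of the embryo pools, with Aph present from the pronuclear stage on. Aph- pools were taken whatever stage the embryos had reached. It also states 3 replicates after SCNT and after fertilization, whereas SCNT Aph+ embryos have 1 array here. The arrays of a group were taken as its replicates. Since nothing states that they came from separate cultures, p-values cover only the spread between these pools.

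Histone deacetylases remove acetyl groups from lysines of histone tails and of other proteins, and chromatin that they act on tends to be compact and silent. The class I enzymes HDAC1 and HDAC2 work in the Sin3, NuRD and CoREST complexes and HDAC3 in the NCoR/SMRT complex, the class IIa enzymes HDAC4, HDAC5 and HDAC7 shuttle between nucleus and cytoplasm and bind MEF2 transcription factors, and the class IIb enzyme HDAC6 is mainly cytoplasmic and deacetylates tubulin. Inhibitors of these enzymes are widely used to help cloned mouse embryos develop, and HDAC1 is a major deacetylase of the preimplantation mouse embryo.

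Each probe has an intensity, the mean brightness of its beads, and a detection p-value, which says how often control beads with no target outshone it. A probe is called detected at a detection p under 0.01. Arrays differed in brightness, and the SCNT Aph+ array had a mean intensity of 89.8, while the SCNT Aph- arrays had 184 to 313. It was 116 to 129 on the fertilized Aph+ arrays and 316 to 374 on the fertilized Aph- arrays, with 145 to 465 in cumulus cells and 289 in the oocyte. After background correction and quantile normalization the values are on a log2 scale, so a level is relative to the other mRNAs of its array and is no amount per embryo, and fewer cells and less RNA per cell cannot be told apart. Across genes the median SD between arrays was 0.52 for fertilized Aph+, 0.24 for SCNT Aph- and 0.18 for fertilized Aph- embryos. Differences are log2 differences from a single limma model of the 6 groups, in which the SCNT Aph+ array and the oocyte array, alone in their groups, were assumed to vary like the rest. A gene was called at an adjusted p under 0.05 over 9787 genes. Most maternal markers were still present in Aph+ embryos, with 8 of 11 detected on the SCNT Aph+ array and 8 to 10 on each fertilized Aph+ array. There were 4 to 6 on each SCNT Aph- array, 4 to 5 on each fertilized Aph- array and 10 in the oocyte. Zp3 was detected on every Aph+ array and on 1 SCNT Aph- array, whereas Gdf9 was detected on every array, cumulus cells included. Mos, Dazl and Zp2 were not detected on the SCNT Aph+ array, and of these Mos and Dazl were detected in the oocyte. On the fertilized Aph+ arrays Mos was not detected either, and Dazl and Zp2 were detected on 1 each. On the SCNT Aph+ array 12 of 18 cumulus markers were detected at a summed normalized level of 14986, against 4 of 18 at 3531 to 4821 on the SCNT Aph- arrays, 16682 to 18320 in cumulus cells and 2021 in the oocyte. That sum weighs most the 2 highest markers on the SCNT Aph+ array, Gja1 (log2 level 12.75) and Timp1 (12.15), which were detected in every group, the oocyte included. Other markers there were lower, such as Hsd3b1 at 6.42, Star at 6.20 and Fshr at 6.18. Of the 18 markers Has2, Tnfaip6, Vcan, Kitl, Amh and Foxl2 were not detected on the SCNT Aph+ array, and of these only Has2 was detected in cumulus cells. No sperm marker was detected on any array (0 of 5).

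The sequences in front of the annotated starts of Hdac5 and Hdac6 are shown because these genes, with Hdac1, gave the differences that passed the test. They come from RefSeq in build GRCm38.p6 and read 5′ to 3′ on the strand of the gene. Capitals mark matches, searched on either strand, to 3 common promoter motifs, which do not overlap one another here. The GC box was searched as GGGCGG. The CCAAT box was searched by the letters of its name, and the last motif, that of the common core promoter element, was TATAAA. Hdac5 lies on chromosome 11 from 102195747 to 102230172, and the 250 bases before its start are chr11:102230173-102230422, minus strand. Hdac6 lies on chromosome X from 7930116 to 7948047, and the 92 bases shown, chrX:7948048-7948139, minus strand, lie outside all its annotated transcripts. They are the first 92 bases of its promoter window of 250 bases, the part farthest from the start which that window precedes. Hdac1 lies on chromosome 4 from 129516104 to 129542646.
Hdac5: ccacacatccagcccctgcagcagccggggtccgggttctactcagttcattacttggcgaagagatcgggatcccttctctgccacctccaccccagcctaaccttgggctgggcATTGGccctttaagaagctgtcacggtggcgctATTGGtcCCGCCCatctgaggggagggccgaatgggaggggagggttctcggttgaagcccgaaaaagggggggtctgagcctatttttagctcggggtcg
Hdac6: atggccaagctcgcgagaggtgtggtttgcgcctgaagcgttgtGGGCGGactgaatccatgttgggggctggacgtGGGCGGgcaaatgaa
The Hdac5 stretch held 2 CCAAT boxes and 1 GC box, all on the opposite strand. Of the 32851 windows of 250 bases in the RefSeq promoter table, 33.8% held a CCAAT box and 32.7% a GC box. The Hdac6 stretch held 2 GC boxes, 206 and 173 bases before the start of its promoter window's transcript. At least 1 lay in the first 92 bases, those farthest from the start, of 9.54% of windows. Neither stretch held TATAAA, which 12.4% of windows held in their 250 bases and 4.88% in their first 92 bases. A match is a description of the letters and not evidence of binding.

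Of the 10 genes, 6 were detected on at least 1 array and entered the test: Hdac1, Hdac2, Hdac3, Hdac5, Hdac6 and Hdac10. Each of them was detected on 7 arrays or more. Hdac2 and Hdac6 were detected on all 13 arrays, Hdac1 and Hdac3 on 12, Hdac5 on 11 and Hdac10 on 7. The remaining 4, Hdac4, Hdac7, Hdac8 and Hdac11, were not detected on any array and are described after the others. The plot of levels by array shows the 6 measured genes, and probes of different genes are not compared with each other because probes differ in brightness.

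**Figure D1:**
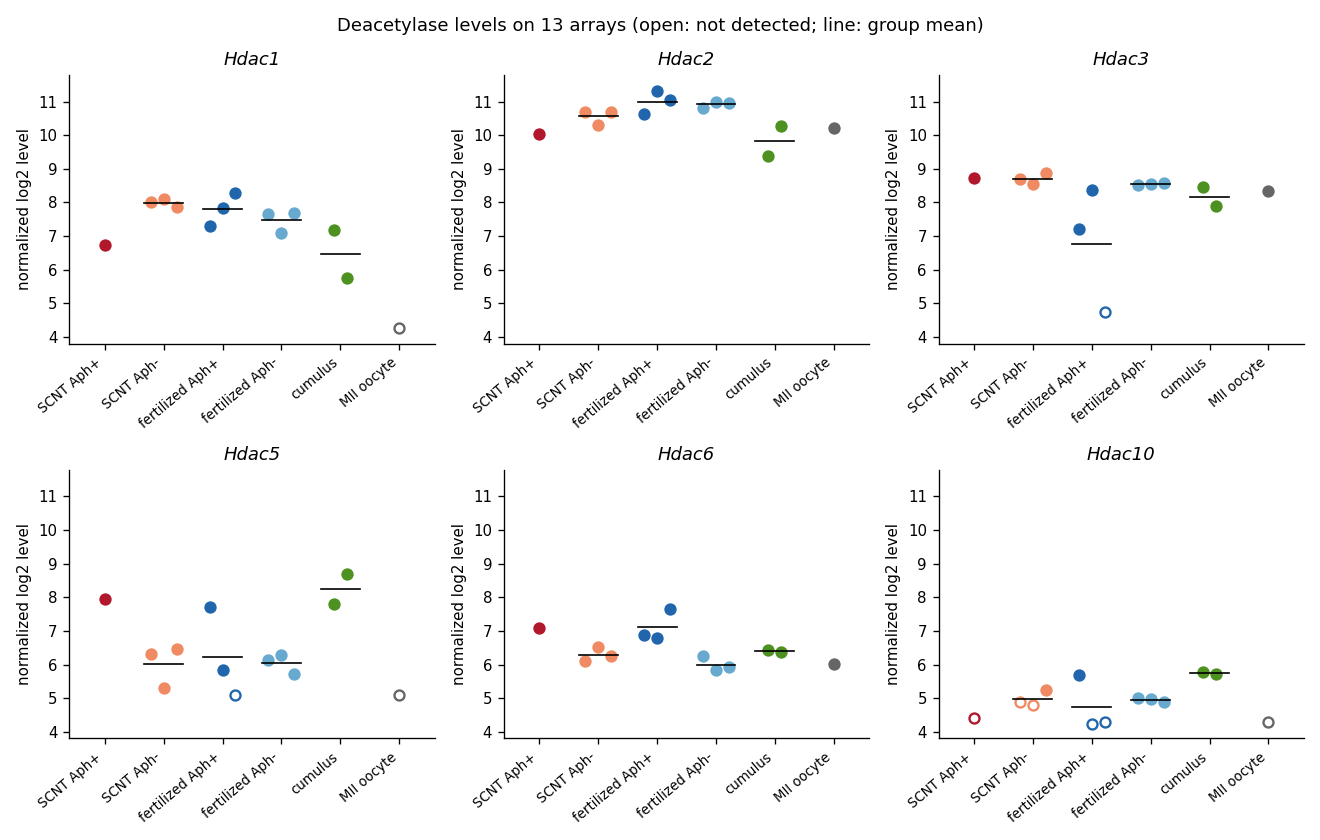
Normalized log2 level (y axis) of 6 deacetylase genes on 13 arrays grouped on the x axis, with filled points where the probe was detected, open points where it was not, and a line at the mean of groups of 2 or 3 arrays. Hdac1 was open only in the oocyte at 4.25, Hdac2 lay between 9.39 and 11.31 throughout, and Hdac5 was highest in cumulus cells and on the SCNT Aph+ array.

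Hdac1 was called higher than the oocyte in all 4 embryo groups and in cumulus cells. Its log2 level was 6.74 on the SCNT Aph+ array and 8.02, 8.12 and 7.86 in SCNT Aph- embryos. It was 7.29, 7.83 and 8.29 in fertilized Aph+ embryos and 7.64, 7.09 and 7.68 in fertilized Aph- embryos. In cumulus cells it was 7.17 and 5.76, and in the oocyte, where the probe was not detected, it was 4.25. The detection p-value there was 0.576. All 12 arrays of embryos and cumulus cells thus lay above the oocyte array. Relative to the oocyte Hdac1 was at least 2.10-fold higher on the SCNT Aph+ array (a log2 difference of 2.49 with a standard error of 0.66 and an adjusted p of 0.0161 from limma) and at least 5.01-fold higher in SCNT Aph- embryos (3.74, standard error 0.54, adjusted p = 0.000314 from limma). It was at least 4.38-fold higher in fertilized Aph+ embryos (3.55, standard error 0.54, adjusted p = 0.000456 from limma) and at least 3.48-fold higher in fertilized Aph- embryos (3.22, standard error 0.54, adjusted p = 0.000849 from limma). Cumulus cells were at least 1.74-fold higher than the oocyte (2.21, standard error 0.57, adjusted p = 0.0107 from limma). Here the fold is a bound, taken from the mean of the brighter group to the detection limit of the oocyte array, which was 5.67 on the log2 scale. The difference on the SCNT Aph+ array was 1.03 with an adjusted p of 0.0871 when no background was subtracted, and 1.29 with an adjusted p of 0.164 when arrays were scaled to their 75th percentile. With the first or the second cumulus array alone the cumulus bound was 2.83-fold or 1.07-fold. The cumulus call was lost with no background subtracted (0.92, adjusted p = 0.0677 from limma) and in a fit of only the cumulus and oocyte arrays (adjusted p = 0.149 from limma). Besides, the SCNT Aph+ array carried 12 of 18 cumulus markers, and its Hdac1 level lay between those of the 2 cumulus arrays. Their part in the Hdac1 value was not tested.

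Before normalization the Hdac1 intensity was 81.7 on the SCNT Aph+ array and 435, 231 and 286 in SCNT Aph- embryos. It was 105, 135 and 132 in fertilized Aph+ embryos and 459, 282 and 478 in fertilized Aph- embryos, against 93.9 in the oocyte, whose detection limit stood at 118. Intensities of Aph+ embryos were thus below all those of Aph- embryos, while the arrays with Aph were also dimmer as a whole and had lower detection limits, 78.1 on the SCNT Aph+ array and 85.9 to 90.1 in fertilized Aph+ embryos. A processed pseudogene, Hdac1-ps, lies on chromosome 17 from 78491565 to 78493541 in the annotation. The probe sequence was not used here, so a share of the signal from such a copy cannot be told apart from Hdac1.

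**Figure D2:**
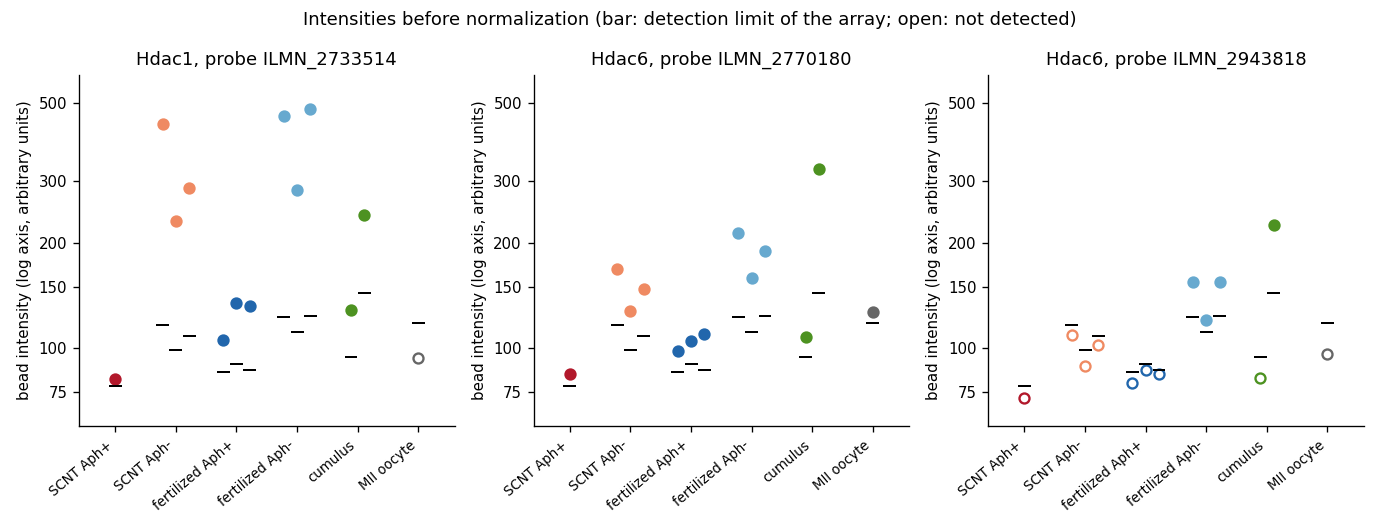
Bead intensity before normalization (log axis, arbitrary units) of the Hdac1 probe and of both Hdac6 probes on each array, with a short bar at the detection limit of that array and open points where the probe was not detected. Hdac1 in the oocyte, at 93.9, was below its limit of 118. The Hdac6 probe in the right panel was not detected on any of the 4 Aph+ arrays, on the SCNT Aph- arrays or in the oocyte.

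Between embryos with and without Aph, Hdac1 did not pass the test. The SCNT Aph+ array was below all 3 SCNT Aph- arrays, at a log2 difference of -1.25 (95% interval -2.46 to -0.05, adjusted p = 0.114 from limma). Fertilized Aph+ and Aph- embryos overlapped, at a difference of 0.33 (95% interval -0.51 to 1.18). The difference between both Aph effects was -1.59 (standard error 0.66, adjusted p = 0.106 from limma). Scaling to the 75th percentile gave -1.88 for the SCNT pair with an adjusted p of 0.00926, and a fit of only the 4 SCNT arrays gave -1.25 with an adjusted p of 0.0141. Without either cumulus array, which enters only through the shared spread, the adjusted p was 0.0472 for the SCNT pair and 0.0443 for the difference between both effects. In order of mean level Hdac1 ran from SCNT Aph- embryos (7.999 ± 0.13, SD, n = 3) through fertilized Aph+ (7.80 ± 0.50, n = 3) and fertilized Aph- embryos (7.47 ± 0.33, n = 3) to the SCNT Aph+ array, cumulus cells (6.47 ± 1.00, n = 2) and the oocyte. Neighbours in that order overlapped, except that the SCNT Aph+ array lay below all 3 fertilized Aph- arrays, which was not tested, and the oocyte below both cumulus arrays. SCNT Aph- embryos, not overlapping, were 0.53 above fertilized Aph- embryos (95% interval -0.32 to 1.38).

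Hdac2, the partner of HDAC1 in the same complexes, was abundant on every array. Its log2 level was 10.05 on the SCNT Aph+ array and 10.70, 10.31 and 10.68 in SCNT Aph- embryos. It was 10.63, 11.31 and 11.04 in fertilized Aph+ embryos and 10.82, 11.004 and 10.95 in fertilized Aph- embryos, with 9.39 and 10.27 in cumulus cells and 10.23 in the oocyte. The mean of every group lay within 1 log2 unit of the oocyte array, and no comparison called it. Its differences from the oocyte ran from -0.40 in cumulus cells to 0.77 in fertilized Aph+ embryos (95% interval -0.09 to 1.63). With against without Aph it differed by -0.51 after SCNT (95% interval -1.37 to 0.34) and by 0.07 after fertilization (95% interval -0.53 to 0.68). SCNT Aph- embryos were below fertilized Aph- embryos without overlap, by 0.36 on the log2 scale (95% interval for the difference -0.97 to 0.24).

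Hdac3, the enzyme of the NCoR/SMRT complex, was even across groups save for the fertilized Aph+ arrays. Its log2 level was 8.73 on the SCNT Aph+ array and 8.68, 8.54 and 8.89 in SCNT Aph- embryos. In fertilized Aph+ embryos it was 7.22, 8.36 and 4.75, the last not detected, and in fertilized Aph- embryos it was 8.52, 8.55 and 8.57. Cumulus cells had 8.45 and 7.90 and the oocyte 8.34. The detection p-value of the undetected array was 0.122. All 3 fertilized Aph+ arrays were below all 3 fertilized Aph- arrays, at a log2 difference of -1.77 (standard error 0.71, adjusted p = 0.0702 from limma). Leaving out the third fertilized Aph+ array gave -0.76, and leaving out the second gave -2.56 with an adjusted p of 0.00675. With arrays scaled to their 75th percentile the difference was -2.15 (adjusted p = 0.000356 from limma). After SCNT the difference with against without Aph was 0.02 (95% interval -2.24 to 2.29). The spread of the fertilized Aph+ arrays (SD 1.85, against 0.03 in fertilized Aph- embryos) was the widest of the 6 genes in any group. Against the oocyte the other groups differed by -0.16 to 0.39 and fertilized Aph+ embryos by -1.56, and none was called. That last difference passed with arrays scaled to their 75th percentile (-1.97, adjusted p = 0.0127 from limma) and without the second fertilized Aph+ array (-2.36, adjusted p = 0.0365 from limma).

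Hdac5, a class IIa enzyme, was highest in cumulus cells. By its brightest probe the log2 level was 7.96 on the SCNT Aph+ array and 6.30, 5.29 and 6.45 in SCNT Aph- embryos. In fertilized Aph+ embryos it was 7.71, 5.83 and 5.11, the last not detected, and in fertilized Aph- embryos 6.15, 6.29 and 5.73. Cumulus cells had 7.79 and 8.68, and in the oocyte the probe was not detected, at 5.10. The SCNT Aph+ array therefore lay between the 2 cumulus arrays and above all 3 SCNT Aph- arrays. Cumulus cells were at least 5.91-fold higher than the oocyte (a log2 difference of 3.14 with a standard error of 0.91 and an adjusted p of 0.0192 from limma). Without the second cumulus array this was 2.70 with an adjusted p of 0.0893. The SCNT Aph+ array lay at least 4.89-fold above the oocyte (2.86 as fitted on the log2 scale, with a standard error of 1.05 and an adjusted p of 0.0622 from limma), which was not called, and differed from SCNT Aph- embryos by 1.95 (standard error 0.86, adjusted p = 0.125 from limma) and from cumulus cells by -0.27 (95% interval -2.31 to 1.77).

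The second Hdac5 probe, ILMN_2659160, was detected on 8 arrays and moved alike in cumulus cells and on the SCNT Aph+ array. With every probe fitted separately, a choice made after the values had been seen, the SCNT Aph+ array was 1.86 above SCNT Aph- embryos (adjusted p = 0.0190 from limma) and 2.27 above the oocyte (adjusted p = 0.0166 from limma), and cumulus cells were 2.51 above the oocyte (adjusted p = 0.00346 from limma). That probe was not detected in the oocyte, at 4.56 with a detection limit of 5.67, and was detected on only 1 SCNT Aph- array. These 3 values are thus fitted and rest in part on levels below detection. By the brightest probe, leaving out the first fertilized Aph+ array, which enters only through the shared spread, gave the SCNT Aph+ array an adjusted p of 0.00856 against the oocyte and 0.0230 against SCNT Aph- embryos, and leaving out the third gave 0.0309 against the oocyte. Without the first array the difference between the Aph effects after SCNT and after fertilization was 2.53 (adjusted p = 0.0205 from limma). Cumulus markers on the SCNT Aph+ array were summed at 14986, against 16682 to 18320 in cumulus cells. On that array the sum weighs most Gja1 and Timp1, which were detected in every group. The part of cumulus mRNA in the Hdac5 level of that array was not tested. A further Hdac5 probe, ILMN_1213290, was not detected on any of the 13 arrays. In the other embryo groups Hdac5 was at least 1.27-fold to 1.46-fold above the detection limit of the oocyte array, none of them called, and fertilized Aph+ and Aph- embryos differed by 0.16 (95% interval -1.20 to 1.52).

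Hdac6, the tubulin deacetylase, was the only member called between embryos with and without Aph, and its probes did not read alike. By the brighter probe, ILMN_2770180, its log2 level was 7.07 on the SCNT Aph+ array and 6.10, 6.53 and 6.25 in SCNT Aph- embryos. It was 6.87, 6.80 and 7.65 in fertilized Aph+ embryos and 6.24, 5.84 and 5.92 in fertilized Aph- embryos, with 6.44 and 6.37 in cumulus cells and 6.03 in the oocyte. All 4 Aph+ arrays lay above every other array. Fertilized Aph+ embryos were 2.15-fold higher than fertilized Aph- embryos (a log2 difference of 1.11 with a standard error of 0.26 and an adjusted p of 0.00628 from limma), and 2.11-fold higher than the oocyte (1.08, standard error 0.36, adjusted p = 0.0372 from limma). After SCNT the Aph+ array was 0.78 above Aph- embryos (95% interval -0.03 to 1.59, adjusted p = 0.146 from limma) and 1.05 above the oocyte (adjusted p = 0.102 from limma). The Aph effects after SCNT and after fertilization differed by -0.33 (95% interval -1.32 to 0.67).

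The Hdac6 call rested on the probe and on the scaling. By ILMN_2943818 the fitted difference was -0.13 for fertilized Aph+ against Aph- embryos (adjusted p = 0.801 from limma). For the SCNT Aph+ array against SCNT Aph- embryos it was -0.30 (adjusted p = 0.753 from limma). That probe was detected on all 3 fertilized Aph- arrays, on 1 cumulus array and on no other array. Neither value is thus a measured fold, and the direction of either difference could not be read from that probe. For fertilized Aph+ against Aph- embryos the mean of both probes gave 0.49 (adjusted p = 0.173 from limma). Arrays scaled to their 75th percentile gave 0.51 (adjusted p = 0.143 from limma). Intensities before normalization ran the other way, at 84.4 on the SCNT Aph+ array and 128 to 169 in SCNT Aph- embryos, and at 98.1 to 110 in fertilized Aph+ embryos and 159 to 213 in fertilized Aph- embryos. The level relative to other mRNAs was thus higher with Aph where the bead signal was lower. The higher value against the oocyte passed the test in the fit of all 6 groups and missed it, at an adjusted p of 0.263, in a fit of only those 4 arrays. It also missed the threshold, at 0.0524 to 0.0570, without the third SCNT Aph- array or without the second or the third fertilized Aph- array, and at 0.0688 to 0.349 in 5 other settings. Without the third fertilized Aph+ array the SCNT Aph+ array passed against the oocyte (adjusted p = 0.0297 from limma). Oocyte markers were also higher with Aph, at a summed level of 16418 to 24093 in fertilized Aph+ embryos and 1654 to 1853 in fertilized Aph- embryos. Hdac6 in the oocyte was at 6.03, below all 3 fertilized Aph+ arrays. The part of kept oocyte mRNA in the Hdac6 level was not tested.

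Hdac10, a class IIb enzyme that deacetylates polyamines, was near the detection limit. Its log2 level was 4.41 on the SCNT Aph+ array, not detected, and 4.90, 4.78 and 5.25 in SCNT Aph- embryos, where only the last was detected. It was 5.70, 4.22 and 4.28 in fertilized Aph+ embryos, where only the first was detected, and 5.01, 4.99 and 4.87 in fertilized Aph- embryos, all detected. Cumulus cells had 5.78 and 5.71, both detected, and the oocyte 4.28, not detected. Cumulus cells were thus above the oocyte on both arrays and, narrowly, above every embryo array on which the probe was detected. The fitted log2 difference from the oocyte was 1.47 (standard error 0.54, adjusted p = 0.0507 from limma), of which, with the oocyte below detection, at least 1.05-fold is measured. That comparison missed the threshold by little, and it passed with the authors' deposited log2 values, at 3.01 and an adjusted p of 0.0423, in 4 other settings at 0.0436 to 0.0494, and without any 1 of the fertilized Aph+ arrays at 0.00148 to 0.0397. The SCNT Aph+ array was 1.34 below cumulus cells on the log2 scale as fitted, with the probe not detected there (adjusted p = 0.193 from limma, or 0.0132 without the first fertilized Aph+ array). The detection limit of that array, 5.97, was above both cumulus levels, so a difference from cumulus cells could not be measured there.

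Hdac4, Hdac7, Hdac8 and Hdac11 stayed below detection on all 13 arrays. Hdac4 and Hdac7 are class IIa enzymes, Hdac8 a class I enzyme that acts on cohesin, and Hdac11 the only class IV enzyme. Hdac4 intensities were 71.1 to 125 with a lowest detection p of 0.0614, Hdac7 intensities 69.6 to 126 with a lowest detection p of 0.130, and Hdac11 intensities 73.4 to 115 with a lowest detection p of 0.139. Hdac8 was closest to detection, with an intensity of 142 and a detection p of 0.0113 in the oocyte. Its log2 level there was 5.63, whereas the median over the 13 arrays was 4.39. When no filter on detection was set, Hdac8 passed the test as lower than the oocyte in all 4 embryo groups and in cumulus cells, with log2 differences of -1.31 in fertilized Aph- embryos to -0.75 on the SCNT Aph+ array, none of which is a measured fold. Transcripts below detection on these arrays are not shown to be absent.

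The counts of called genes were read against all genes tested. With against without Aph, 0 of 6 deacetylases were called after SCNT, where 28.4% of 9787 genes were, and 2 of 6 at an unadjusted p under 0.05. After fertilization 1 of 6 was called (Hdac6), where 44.2% of genes were. Between SCNT Aph- and fertilized Aph- embryos 0 of 6 were called, also 0 at an unadjusted p under 0.05, where 0.562% of genes were called. Against the oocyte 1 of 6 was called for SCNT Aph+ (33.5% of genes), 1 for SCNT Aph- (45.2%), 2 for fertilized Aph+ (40.9%), 1 for fertilized Aph- (44.9%) and 2 for cumulus cells (42.6%), all of them higher. Hdac1 was among them each time, with Hdac6 in fertilized Aph+ embryos and Hdac5 in cumulus cells. Between the SCNT Aph+ array and cumulus cells 0 were called (6.99% of genes), and 1, Hdac10, had an unadjusted p under 0.05. For the difference between both Aph effects 0 were called (26.2% of genes), and 1, Hdac1, had an unadjusted p under 0.05. By a fitted mean at least 2-fold from the oocyte in either direction, with no test, 3 of 6 deacetylases differed for SCNT Aph+ (51.8% of genes), 1 for SCNT Aph- (55.2%), 4 for fertilized Aph+ (53.9%), 1 for fertilized Aph- (55.3%) and 3 for cumulus cells (54.0%). Counting increases only, the counts were 3 for SCNT Aph+ (beside 2642 of all 9787 genes), 1 for SCNT Aph- (2854 genes), 3 for fertilized Aph+ (2552 genes), 1 for fertilized Aph- (2870 genes) and 3 for cumulus cells (2872 genes), since Hdac3 in fertilized Aph+ embryos was lower. The comparisons with the oocyte share 1 oocyte array, so they are not independent of one another.

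**Figure D3:**
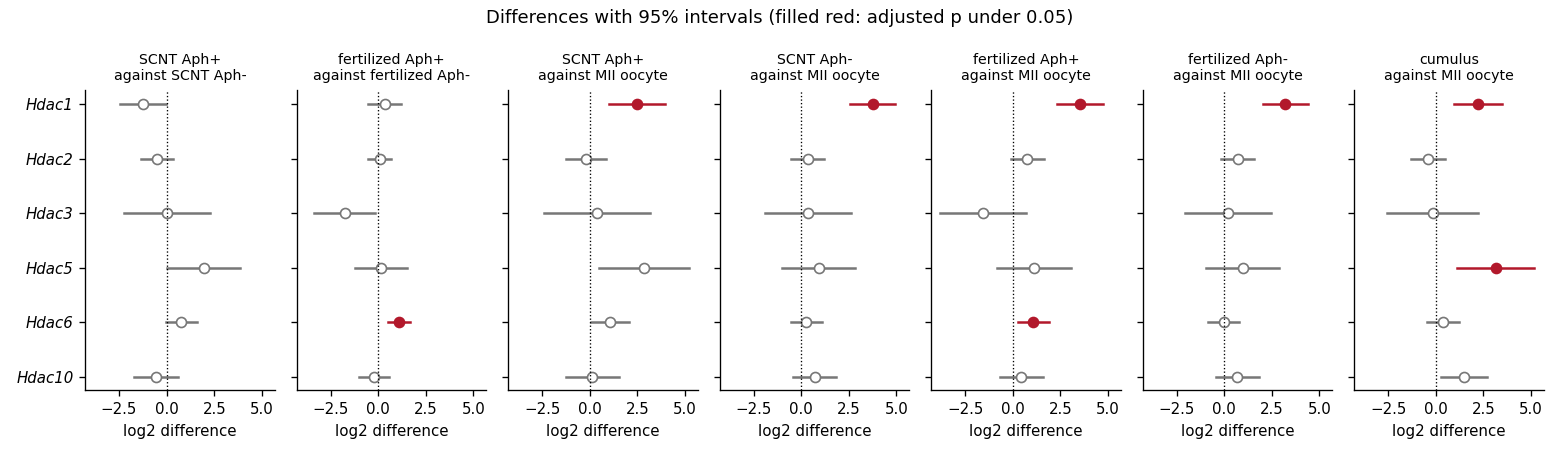
Log2 differences (x axis) of the 6 measured deacetylases (y axis) in 7 comparisons (panels), with 95% intervals from limma, and filled red points where the adjusted p was under 0.05. Hdac1 was filled in all 5 panels against the oocyte, where its probe was not detected, and in neither panel of Aph+ against Aph- embryos.

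By Pearson's r over the 13 arrays, the genes whose levels ran most like those of each deacetylase were named without a test, since the arrays fall into groups and share their normalization. They were Mybbp1a and Znrd2 for Hdac1 (r = 0.968 and 0.965). For Hdac2 they were Timm10 and Grwd1 (0.930 and 0.910), and for Hdac3 Preb and Dnaja3 (0.931 and 0.928). For Hdac5 they were Eif2ak2 and Nlgn2 (0.931 and 0.929). For Hdac6 they were Ccdc27 and Tmprss4 (0.946 and 0.939), and for Hdac10 Fbf1 and Aff4 (0.919 and 0.901). No gene was named for more than 1 deacetylase.

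Genes that act with the deacetylases were read from lists of complex partners. For HDAC1/2 complexes, such as Sin3, NuRD and CoREST, 22 listed genes were tested. Of these, 2 rose and 3 fell on the SCNT Aph+ array against SCNT Aph- embryos. In fertilized Aph+ against Aph- embryos 6 rose and 3 fell. Of all genes tested, 13.7% rose and 14.7% fell after SCNT, and 19.1% rose and 25.1% fell after fertilization. The median difference of these 22 genes was -0.11 after SCNT, against -0.10 over all genes, and 0.25 after fertilization, against -0.03. Mta3, a NuRD subunit, fell by 2.70 on the log2 scale after SCNT (adjusted p = 0.000137 from limma) and by 2.26 after fertilization (adjusted p = 1.99e-05 from limma). Its level was 8.70 on the SCNT Aph+ array, against 11.31 to 11.47 on the SCNT Aph- arrays, and 8.83 to 9.19 on the fertilized Aph+ arrays, against 11.17 to 11.51 on the fertilized Aph- arrays. Sap30, a subunit of the Sin3 complex, was 2.52 higher in fertilized Aph+ than Aph- embryos (adjusted p = 0.00206 from limma), yet it was at 10.48 to 11.55 in fertilized Aph+ embryos and at 13.37 in the oocyte. Of 4 tested genes of the HDAC3 complex none was called after SCNT and 1, Tbl1x, fell after fertilization, by 2.30 as fitted (adjusted p = 0.0346 from limma). The third fertilized Aph+ array, at 4.38, did not detect Tbl1x.

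Of 13 tested partners and kinases of the class IIa enzymes, 1 rose and 2 fell after SCNT, and 1 rose and 6 fell after fertilization. Of all genes, 13.7% rose and 14.7% fell after SCNT, and 19.1% rose and 25.1% fell after fertilization. The median difference of the 13 genes was -0.15 after SCNT and -0.51 after fertilization. Camk2d, counted among those that fell in both, was not detected in Aph+ embryos and gave no measured fold. Prkd3, a protein kinase D that phosphorylates class IIa enzymes, was at least 13.7-fold higher on the SCNT Aph+ array than in SCNT Aph- embryos, where it was not detected (log2 difference 4.43, adjusted p = 0.000448 from limma). Its level was 8.85 on that array, 9.55 to 9.90 in cumulus cells and 7.73 in the oocyte. Ywhag, a 14-3-3 protein that holds phosphorylated class IIa enzymes in the cytoplasm, fell by 2.65 after SCNT and by 2.92 after fertilization (adjusted p = 0.00381 and 0.000153 from limma). Levels were 7.10 on the SCNT Aph+ array, against 9.29 to 9.98 on the SCNT Aph- arrays, and 6.14 to 7.15 on the fertilized Aph+ arrays, against 9.26 to 9.86 on the fertilized Aph- arrays.

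**Figure D4:**
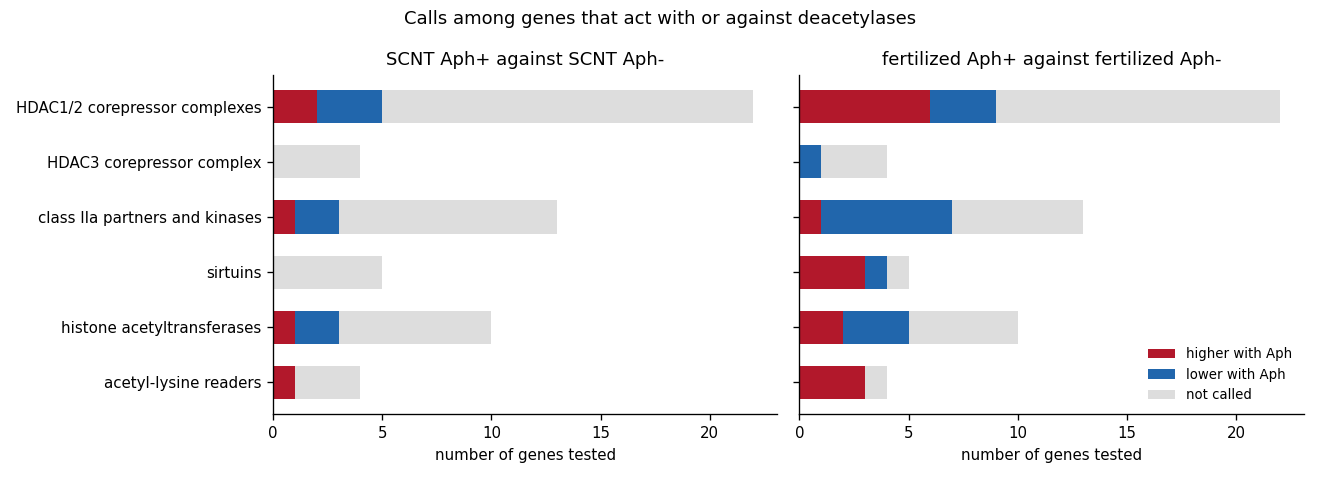
Number of genes (x axis) called higher (red), called lower (blue) or not called (grey) at an adjusted p under 0.05 among 6 lists of genes that act with or against the deacetylases, on the SCNT Aph+ array against SCNT Aph- embryos (left) and in fertilized Aph+ against Aph- embryos (right). After SCNT 12 genes and after fertilization 29 genes of the 58 were called, beside 28.4% and 44.2% of all genes tested.

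The sirtuins, which deacetylate with NAD and form a separate family, had 0 of 5 tested genes called after SCNT, where 28.4% of all genes were, and 3 that rose and 1 that fell after fertilization, where 44.2% were. Whether the list differed between SCNT and fertilization was not tested. Sirt1 was 1.91 and Sirt7 1.44 higher in fertilized Aph+ than Aph- embryos (adjusted p = 0.00151 and 0.00239 from limma). Of 10 acetyltransferases, the enzymes of the opposite reaction, 1 rose and 2 fell after SCNT, and 2 rose and 3 fell after fertilization. Of all genes, 13.7% rose and 14.7% fell after SCNT, and 19.1% rose and 25.1% fell after fertilization. Ncoa1, a coactivator, was higher with Aph in both, by 3.11 after SCNT and by 2.85 after fertilization (adjusted p = 0.00650 and 0.000883 from limma). Kat8, the enzyme of histone H4 lysine 16, was 1.88 higher after fertilization (adjusted p = 0.000201 from limma) and 0.74 lower after SCNT, which was not called. Of 4 tested acetyl-lysine readers, 1 rose after SCNT, where 13.7% of all genes did, and 3 rose after fertilization, where 19.1% did. Brdt, a reader of the germ line, was at least 50.5-fold higher on the SCNT Aph+ array than in SCNT Aph- embryos and at least 33.5-fold higher in fertilized Aph+ than Aph- embryos (adjusted p = 1.40e-05 and 1.40e-06 from limma). Its level was 10.74 on the SCNT Aph+ array, 9.30 to 10.44 in fertilized Aph+ embryos and 11.17 in the oocyte, and it was not detected in any embryo without Aph.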

How the data were processed

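The authors deposited, for each probe, a linear bead intensity as BeadStudio 3.2 gave it, neither background-subtracted nor normalized, and a detection p-value beside it. Their second table, of log2 values, was background-adjusted and quantile normalized by the authors. The submitters' notes also name lumi and RMA, with no version.

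For the values here, neqc (limma 3.58.1, R 4.3.3, offset 16) was run on the intensities, with negative controls estimated from the detection p-values. Probes with a symbol (1719 had none) entered where 1 array or more had a detection p under 0.01, and each gene was read by its brightest such probe, which left 9787 of 16593 genes. One limma model of 6 groups with 7 residual degrees of freedom was followed by eBayes and Benjamini-Hochberg adjustment per contrast. A group with no array detected gave a bound, from the detection limit of each array. On simulated data with 200 changed genes at the real group sizes, the model was tested before use. Platform annotation gave symbols, and RefSeq GRCm38.p6 gave positions for the 10 genes and promoter windows. All 10 genes were described. From each list the text names genes among the up to 3 with the largest difference at adjusted p under 0.05, and for each deacetylase the 2 genes with the highest r. The genes and lists were chosen with earlier results of these data known. Precision is limited by the number of arrays.

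As alternatives, background correction, the detection filter or the quantile step (for 75th percentile scaling) was dropped, detection was asked of 3 arrays, all kept probes were averaged, only the groups compared were fitted, and eBayes was run with trend and robust. Others were the log2 values of the authors, the sample type named in the labels as a block, a mean at least 2-fold from the oocyte in either direction with no test, and each array of a group of 2 or 3 left out. A fit by the next brightest probe was chosen with the values in view. The study's imaging and RT-PCR results were not analysed here.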

Additional observations from a re-analysis of the deposited data

Results flagged for a closer look

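No deacetylase met a rule for a closer look, and groups of 3 arrays or fewer are too small to test an array for standing apart. Of the 58 partner genes tested, 14 (24.1%, against 26.2% of all genes) differed in the effect of Aph between SCNT and fertilization by limma's test of the difference, and 5 of them are genes named by the rule for the text. For Prkd3 the difference between both effects was 2.395 on the log2 scale (standard error 0.697, adjusted p = 0.0307 from limma), with 4.43 after SCNT and 2.04 after fertilization. Since Prkd3 was not detected on the SCNT Aph- arrays, 4.43 is a fitted value, measured only as at least 13.7-fold, and the size of the difference rests on it. For Kat8 it was -2.62 (adjusted p = 0.00182 from limma), with -0.74 after SCNT and 1.88 after fertilization. For Sirt1 it was -1.98 (adjusted p = 0.0349 from limma), for Sirt7 -1.67 (adjusted p = 0.0293 from limma) and for Brd9, a bromodomain protein, -1.89 (adjusted p = 0.0484 from limma), each higher with Aph after fertilization and not called after SCNT. The SCNT side rests on 1 array with Aph. For the deacetylases the smallest adjusted p of that difference was 0.106, for Hdac1.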

How the results depend on the processing

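Hdac1 stayed called against the oocyte in SCNT Aph-, fertilized Aph+ and fertilized Aph- embryos under every alternative tried. With arrays scaled to their 75th percentile, 2 of 6 deacetylases were called for Aph+ against Aph-, both after SCNT and after fertilization. With no filter on detection, which lets all 10 genes in, 1 of 10 was called for SCNT Aph+ against SCNT Aph-, and, against the oocyte, 2 each for SCNT Aph+, SCNT Aph- and fertilized Aph- and 3 each for fertilized Aph+ and cumulus cells, Hdac8 among them. In fits of only the groups compared, 1 was called for SCNT Aph+ against SCNT Aph-, 1 for the difference between both Aph effects, and, against the oocyte, 1 in fertilized Aph+ and 4 in fertilized Aph- embryos. With the mean of all kept probes, 0 were called for fertilized Aph+ against Aph-, with 2 at an unadjusted p under 0.05, and, against the oocyte, 2 for SCNT Aph+ and 1 for fertilized Aph+. The authors' deposited log2 values and eBayes with trend and robust each left 1 for fertilized Aph+ against the oocyte. With no background correction, 0 were called on the SCNT Aph+ array and 1 in cumulus cells against the oocyte. By a mean at least 2-fold from the oocyte with no test, 3 differed for SCNT Aph+ (51.8% of genes) and 4 for fertilized Aph+ (53.9%). For the other settings, and with an array left out, the share of all genes called was not counted. Their counts of deacetylases therefore cannot be read against such a share.

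Leaving out 1 array at a time gave 0 to 1 called for SCNT Aph+ against SCNT Aph-, 1 to 2 for fertilized Aph+ against Aph-, 0 to 0 for SCNT Aph- against fertilized Aph-, 1 to 3 on the SCNT Aph+ array, 1 to 2 in SCNT Aph-, 1 to 3 in fertilized Aph+ and 1 to 2 in fertilized Aph- embryos and 1 to 3 in cumulus cells against the oocyte, 0 to 1 for SCNT Aph+ against cumulus cells and 0 to 1 for the difference between both Aph effects. By its other probe fitted differences of Hdac6 turned in sign, none of them called. They were -0.13 for fertilized Aph+ against Aph-, -0.30 for SCNT Aph+ against SCNT Aph- and -0.018 for SCNT Aph+ against the oocyte. The other values were -0.76 for SCNT Aph+ against cumulus cells, -0.70 for SCNT Aph- against fertilized Aph- and 0.99 for fertilized Aph- against the oocyte. In each of these comparisons 1 group or both had no array that detected that probe. The signs thus rest in part on levels below detection. The cause of these changes was not tested. Scaling to the 75th percentile moved the median of all genes to 0.16 after SCNT and 0.31 after fertilization for Aph+ against Aph-, and to 0.35, -0.29, 0.29, -0.62 and -0.48 against the oocyte for SCNT Aph+, SCNT Aph-, fertilized Aph+, fertilized Aph- and cumulus. The share of called genes that were higher was then 25.5% rather than 48.1% after SCNT, 57.2% rather than 43.2% after fertilization and 8.99% rather than 50.6% for SCNT Aph+ against the oocyte. The SCNT Aph+ array and the oocyte were never left out, and no fit of only those 2 arrays was possible. No paired analysis was possible by replicate number because the groups compared share fewer than 2 such numbers in the labels. With the sample type of the labels as a block in the embryo arrays, the counts were 1 for fertilized Aph+ against Aph- (Hdac6, adjusted p = 0.0254 from limma) and 0 for SCNT Aph+ against SCNT Aph-, for SCNT Aph- against fertilized Aph- and for the difference between both Aph effects, as without it, and no source states that a type marks a shared batch.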

Other observations

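Against the oocyte, genes of the deacetylase complexes were called in both directions. From the list of HDAC1/2 complexes, such as Sin3, NuRD and CoREST, 22 genes were tested. Of these, 3 rose and 7 fell on the SCNT Aph+ array, and 6 rose and 7 fell in SCNT Aph- embryos. In fertilized Aph+ embryos 6 rose and 5 fell, and in fertilized Aph- embryos 5 rose and 7 fell. In the same order of groups 33.5%, 45.2%, 40.9% and 44.9% of all genes were called. Rbbp7, a histone-binding subunit of the Sin3 and NuRD complexes, fell in all 4 embryo groups. On the SCNT Aph+ array, where it was not detected, it was at least 10.8-fold lower (adjusted p = 0.00434 from limma). Log2 differences were -3.79 for SCNT Aph-, -4.08 for fertilized Aph+ and -3.48 for fertilized Aph- embryos (adjusted p = 0.000447, 0.000299 and 0.000790 from limma). Of the fertilized Aph+ arrays only the second detected it, so -4.08 is a fitted value that rests in part on levels below detection. Of the HDAC3 complex, Tbl1xr1 was not detected on any embryo array and was lower than in the oocyte by at least 2.64-fold for SCNT Aph+, 4.89-fold for SCNT Aph-, 2.84-fold for fertilized Aph+ and 6.02-fold for fertilized Aph-. Cops2 was 2.61, 2.01, 1.97 and 1.56 higher on the log2 scale in the same order. All 4 of these comparisons share the oocyte array.

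Of the acetyltransferases, Kat7 was lower than in the oocyte by at least 5.72-fold on the SCNT Aph+ array (adjusted p = 0.000179 from limma), and 7.22-fold lower in fertilized Aph+ embryos (adjusted p = 7.88e-05 from limma). The 7.22-fold is a fitted value, since only the first fertilized Aph+ array detected Kat7. Without Aph the Kat7 level was 6.26 to 6.62 on the SCNT Aph- arrays and 6.62 to 7.03 on the fertilized Aph- arrays. All of these were also below the oocyte, at 8.48. Kat8 was higher than in the oocyte in all 4 embryo groups, by 1.56 on the SCNT Aph+ array, 2.30 on the SCNT Aph- arrays, 3.82 on the fertilized Aph+ arrays and 1.94 on the fertilized Aph- arrays. Prkd1, a kinase of class IIa enzymes, was at least 5.92-fold lower on the SCNT Aph+ array, at least 10.9-fold lower in SCNT Aph- embryos, 8.55-fold lower in fertilized Aph+ embryos and at least 13.5-fold lower in fertilized Aph- embryos. The 8.55-fold is a fitted value, since only the third fertilized Aph+ array detected Prkd1.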
